A study of Mus musculus with 12 samples.

Results

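The genes described here carry the Mrps symbols, which name the proteins of the small subunit of the mitochondrial ribosome. They were taken as every gene whose probe sets the platform annotation pairs with 1 symbol that begins with Mrps followed by a number, and each gene was represented by its probe set with the highest mean log2 intensity over the 12 arrays. This gave 29 genes of 18193 genes measured, covered by 52 of 45037 probe sets. All 29 matched a mouse gene in RefSeq by Entrez identifier. A further probe set lists Nme3 and Mrps34 together and was not used.

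Mitochondria keep their own ribosomes, which translate the few membrane proteins of the respiratory chain and ATP synthase that mitochondrial DNA encodes. The small subunit binds the messenger RNA and reads the codons, while the large subunit (the Mrpl proteins) forms the peptide bonds. All of the protein parts are encoded in the nucleus, made in the cytosol and imported. Part of them descend from bacterial ribosomal proteins, and the others are found only in mitochondrial ribosomes. PGC-1alpha (gene Ppargc1a) is a transcriptional coactivator of nuclear genes for mitochondrial proteins, and rapamycin inhibits the kinase complex mTORC1, which is restrained by the TSC1/TSC2 complex.

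The study measured mouse embryonic fibroblasts that lack TSC2 (TSC2-/- MEFs) on Affymetrix MOE430 version 2 arrays, in 2 experiments and 4 groups of 3 arrays that the design text calls biological triplicates. Every group carries the TSC2 deletion, so no array shows cells with TSC2. In the first experiment, cells received 20 nM rapamycin or the vehicle DMSO for 14 h. In the second, confluent cells were infected for 10 h with adenovirus carrying either green fluorescent protein (GFP) or PGC-1alpha, and RNA was taken 14 h after the medium was replaced. All cells were grown in DMEM with 10% CCS. Expression from a virus raised Ppargc1a far above its own level, from a mean intensity of 87.8 to 2344. The sources used here do not state the age of the embryos or how the line was established. The 2 experiments share no array, and the authors normalized them separately with RMA. The series title puts the mitochondrial genes that mTOR affects under a complex of YY1, a zinc finger transcription factor, and PGC-1alpha.

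The arrays had a median intensity of 77.5 to 81.0 over the tested probe sets. The normalization within each experiment evens out such medians, so they do not show how alike the arrays were. Of 8 fibroblast markers, Col1a1, Col1a2, Col3a1, Fn1 and Vim had a mean intensity of at least 7140 in every group, while Pdgfrb (group means 220 to 352), Thy1 (277 to 335) and S100a4 (718 to 895) were dimmer. 3 of the 8 rose with rapamycin, Pdgfrb (log2 0.67), S100a4 (0.32) and Fn1 (0.20). Of the markers of other cell types, the 4 endothelial ones had group means from 21.6 (Tek) to 199 (Kdr), the 4 macrophage ones from 23.3 (Ptprc) to 247 (Csf1r) and the 4 skeletal muscle ones from 20.6 (Myh2) to 152 (Ckm). No marker was listed at 0. Among 4 epithelial markers Epcam was the brightest (group means 655 to 771). The summed intensity of the 4 was 1170 to 1238 on the vehicle arrays, 1419 to 1475 on the rapamycin arrays, 1228 to 1376 on the GFP arrays and 1302 to 1383 on the PGC-1alpha arrays. 2 of these 4 rose with rapamycin, Krt18 (log2 0.56) and the dim Cdh1 (0.24). Of 4 macrophage markers 1 rose with rapamycin (Cd68, 0.29), and their sum was 358 to 394 on the vehicle arrays and 401 to 413 on the rapamycin arrays. The ratio of the 3' to the 5' Gapdh probe sets, a measure of RNA integrity, was 0.84 to 0.861 with vehicle and 0.807 to 0.826 with rapamycin. It was 0.865 to 0.879 with GFP and 0.894 to 0.905 with PGC-1alpha, so the groups did not overlap in either comparison. The same ratio for actin was 1.29 to 1.33 with vehicle, 1.30 to 1.32 with rapamycin, 1.26 to 1.32 with GFP and 1.31 to 1.33 with PGC-1alpha, overlapping in both. For the transferrin receptor it was 3.56 to 3.89 with vehicle, 3.81 to 4.17 with rapamycin, 2.95 to 3.02 with GFP and 2.98 to 3.38 with PGC-1alpha, again overlapping. The part of these marker and RNA quality differences in the results below was not tested. Since bulk RNA was measured, fewer cells of a type and less RNA per cell cannot be told apart.

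Arrays 2 and 3 of the GFP group differed in a way that touches the second comparison. Over the tested probe sets, the SD of the log2 difference was 0.109 between GFP arrays 1 and 2. It was 0.155 between GFP arrays 1 and 3 and 0.167 between GFP arrays 2 and 3. All 29 Mrps genes lay above the GFP mean on GFP array 3 and all 29 lay below it on GFP array 2. The same held for bright genes in general: of the 5643 genes at least as bright as the dimmest member, 91.9% were above the GFP mean on array 3 and 11.5% on array 2.

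Promoter sequence from RefSeq (GRCm38.p6, 250 bases before to 50 after an annotated transcript start) was found for 26 of the 29 genes. It is shown here for the members on which the results turn and for the motif of YY1, which the series title names. The letters AANATGGCG, searched on both strands, stood in the promoters of 5 of these 26 genes, against 2.76% of 27025 genes. In the following windows the match is in capitals and each line runs 5′ to 3′ on the strand of the gene. They lie at chr17:46111005-46111033 (plus strand, Mrps18a), chr13:99344790-99344818 (plus, Mrps27), chr11:5707652-5707675 (minus, Mrps24), chr13:118387219-118387247 (minus, Mrps30) and chr7:78783013-78783041 (plus, Mrps11).
Mrps18a: ggtgcgttccAAGATGGCGgccctcaggg
Mrps27: ggtgcgctccAAGATGGCGgctcccatgg
Mrps24: gcgccggcccAAGATGGCGtggtc
Mrps30: gcggcgggcgAAAATGGCGgcggccaggt
Mrps11: ctacgggcgcCGCCATCTTtctgtcttcc
In the first 4 genes the match lay on the strand of the gene and after the transcript start, at 11, 14, 36 and 15 bases past it. In Mrps11 it lay on the opposite strand, 108 bases before the start.

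Whole promoters are given for 3 genes. Mrps22 (chr9:98601630-98601929, minus strand) had the largest change with rapamycin, and Mrps5 (chr2:127587176-127587475, plus strand) was called in both comparisons. Mrps18a (chr17:46110754-46111053, plus strand) holds matches to more than 1 motif, as do Mrps21, Mrps26 and Mrps27. Capitals mark matches to AANATGGCG (YY1) and to CCGGAAG, the core recognized by ETS factors such as GABP.
Mrps22: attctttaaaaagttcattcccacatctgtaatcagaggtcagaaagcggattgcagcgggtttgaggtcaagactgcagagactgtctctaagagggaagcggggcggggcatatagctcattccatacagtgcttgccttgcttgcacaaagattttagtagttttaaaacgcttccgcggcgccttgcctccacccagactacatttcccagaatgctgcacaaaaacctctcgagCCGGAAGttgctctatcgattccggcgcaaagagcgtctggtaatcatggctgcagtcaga
Mrps18a: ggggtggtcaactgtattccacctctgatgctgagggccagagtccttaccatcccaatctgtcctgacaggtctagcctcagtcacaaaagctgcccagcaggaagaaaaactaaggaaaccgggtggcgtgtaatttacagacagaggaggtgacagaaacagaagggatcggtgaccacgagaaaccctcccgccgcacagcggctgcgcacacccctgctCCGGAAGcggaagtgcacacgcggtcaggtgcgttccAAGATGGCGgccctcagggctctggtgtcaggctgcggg
Mrps5: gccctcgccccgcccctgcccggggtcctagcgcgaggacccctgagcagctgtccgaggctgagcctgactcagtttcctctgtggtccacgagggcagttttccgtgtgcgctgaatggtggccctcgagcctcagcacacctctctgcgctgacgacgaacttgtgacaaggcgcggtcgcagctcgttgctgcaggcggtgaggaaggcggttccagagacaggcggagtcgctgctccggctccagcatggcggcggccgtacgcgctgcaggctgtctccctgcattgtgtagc
CCGGAAG or its reverse complement stood in the promoters of 11 of the 26 genes, against 9.93% of all genes. The palindromic motif of NRF1 stood in 3 (Mrps9, Mrps21 and Mrps26), against 5.19%. TNAAGGTCA, the motif of the estrogen-related receptors that PGC-1alpha coactivates, stood in none, against 1.43%, which says only that these letters are not in these windows. The promoter of Mrps5 held none of the 4 motifs. For 7 members, among them Mrps23, Mrps2 and Mrps27, a promoter entry begins at a transcript start other than the outer end of the gene.

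With rapamycin the Mrps genes were lower as a group. 23 of the 29 fell and 0 rose (limma, adjusted p under 0.05), where 18% of all genes fell and 11.3% rose. At an unadjusted p under 0.05, 26 were lower and 0 higher, where 4118 of all 18193 genes were lower and 2837 higher. The median log2 change was -0.34, against -0.01 over all genes, and the range was -0.84 to 0.10. In 26 genes every rapamycin array lay below every vehicle array, which was so for 24.6% of all genes. In 1 gene, Mrps21, every rapamycin array lay above, which was so for 17.5%. Bright genes as a class were also lower: of the 5643 genes at least as bright as the dimmest member, 36.9% fell, with a median of -0.07.

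**Figure D1:**
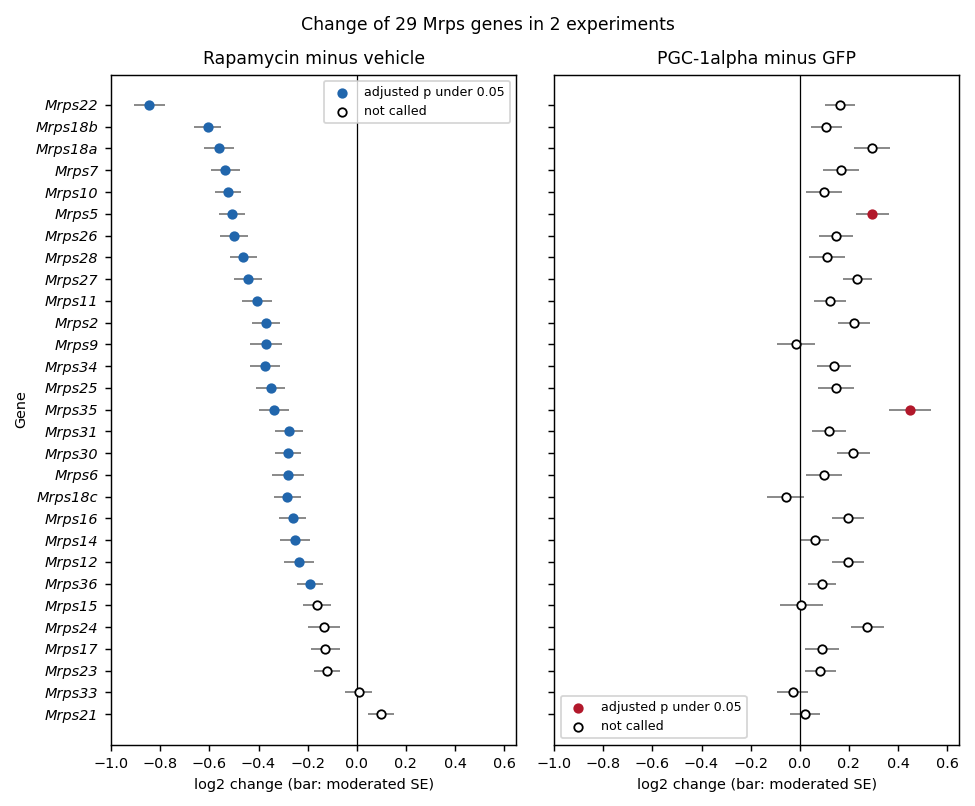
Log2 change of each of the 29 Mrps genes with rapamycin (left) and with PGC-1alpha (right), in the order of the rapamycin change. Points are the differences of means of 3 arrays a group, bars are moderated standard errors, and filled points passed an adjusted p of 0.05. With rapamycin 23 points are filled and all lie below 0, and with PGC-1alpha 2 are filled, Mrps35 and Mrps5.

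Among the proteins found only in mitochondria, 7 of 9 fell with rapamycin, with a median log2 change of -0.35. Mrps22, in which mutations cause combined respiratory chain deficiency, changed most. Its intensity was 956, 988 and 873 on the vehicle arrays and 497, 534 and 538 on the rapamycin arrays. The rapamycin arrays were far below all vehicle arrays. The change was -0.84 ± 0.06 (moderated SE, n = 3 arrays a group), a level 1.80-fold lower (limma, adjusted p = 9.1e-07).

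Mrps26 was 1095, 1006 and 998 with vehicle and 712, 749 and 731 with rapamycin. The groups did not overlap, and the change was -0.50 ± 0.06 (adjusted p = 2.5e-05). Mrps27, a pentatricopeptide repeat protein, was 402, 407 and 373 with vehicle and 279, 290 and 300 with rapamycin. It fell by 0.44 on the log2 scale (adjusted p = 6.9e-05), again without overlap.

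Mrps34, whose loss destabilizes the small subunit, had 1293, 1382 and 1322 with vehicle and 955, 1083 and 1055 with rapamycin (log2 -0.37, adjusted p = 0.00047). Mrps25 went from a mean intensity of 425 ± 22.4 (SD) to 333 ± 9.98 (-0.35). Mrps35 had 823, 807 and 825 with vehicle and 605, 699 and 644 with rapamycin (-0.34 ± 0.06, adjusted p = 0.00098). In none of these 3 genes did the groups overlap. Mrps31 went from 435 ± 6.17 to 360 ± 17.7 (-0.28, adjusted p = 0.0022). With the mean of its 2 probe sets the call of Mrps31 was lost (-0.10, adjusted p = 0.11).

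The other two of this class were not called. Mrps23 had a mean of 586 ± 6.03 with vehicle and 539 ± 13.7 with rapamycin (-0.12, adjusted p = 0.11), with all rapamycin arrays below. Mrps33 had 937, 952 and 958 with vehicle and 908, 987 and 969 with rapamycin (0.01 ± 0.05, adjusted p = 0.94), and its groups overlapped.

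Among the bacterial-type proteins, 13 of 17 fell with rapamycin, with a median of -0.28. Mrps18b, a relative of bacterial S18, had 1029, 1067 and 1067 with vehicle and 668, 713 and 695 with rapamycin. Its change was -0.61 ± 0.05 (adjusted p = 3.3e-06). The highest rapamycin array was well below the lowest vehicle array.

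Mrps7, a protein of the head of the subunit, had 818, 776 and 779 with vehicle and 514, 578 and 547 with rapamycin (-0.54 ± 0.06, adjusted p = 1.9e-05). Mrps10, also of the head, had 780, 781 and 770 against 514, 557 and 551 (-0.52 ± 0.05, adjusted p = 1.2e-05). Mrps5, a relative of the bacterial protein that affects decoding accuracy, had 339, 329 and 322 against 225, 235 and 236 (-0.51 ± 0.05, adjusted p = 1.2e-05). The groups were apart in all 3 genes.

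Mrps28 had 680, 709 and 700 with vehicle and 486, 524 and 507 with rapamycin (-0.46 ± 0.05, adjusted p = 3.1e-05), without overlap. Smaller changes passed the threshold in 8 further bacterial-type genes, without overlap in any of them. Mrps11, a protein of the platform, had 694, 682 and 676 with vehicle and 485, 558 and 508 with rapamycin (-0.41, adjusted p = 0.00023). Mrps2 had 633, 664 and 609 against 470, 501 and 503 (-0.37, adjusted p = 0.00028). Mrps9 had 405, 373 and 380 against 290, 283 and 324 (-0.37, adjusted p = 0.00066). Even the nearest pair of opposite arrays was apart in these genes.

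The remaining changes lay between -0.28 and -0.23. Mrps6 had 1320, 1283 and 1222 with vehicle and 965, 1114 and 1075 with rapamycin (-0.28, adjusted p = 0.005). Mrps16 had 1510, 1474 and 1447 against 1182, 1270 and 1245 (-0.26, adjusted p = 0.0026). Mrps14 had 1744, 1811 and 1750 against 1368, 1539 and 1560 (-0.25, adjusted p = 0.008). In these genes the groups were apart by less than in Mrps18b or Mrps7. Mrps12, the relative of the bacterial decoding-centre protein, had 629, 649 and 690 against 533, 547 and 594 (-0.23, adjusted p = 0.012). Its call was lost after quantile normalization over 12 arrays (-0.15, adjusted p = 0.11) and without vehicle array 3 (-0.20, adjusted p = 0.052). Mrps18c, with -0.28, is described with its paralogs.

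4 bacterial-type genes were not called. Mrps15, whose bacterial relative binds the ribosomal RNA early in assembly, had 575, 630 and 620 with vehicle and 547, 553 and 530 with rapamycin (-0.16, adjusted p = 0.05, just over the threshold). Its groups did not overlap. Mrps17 (-0.13, adjusted p = 0.14) and Mrps24 (-0.13, adjusted p = 0.17) had lower means with rapamycin. Mrps24 overlapped between the groups. Without vehicle array 1, Mrps15 (-0.20, adjusted p = 0.037) and Mrps24 (-0.20, adjusted p = 0.036) fell.

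Mrps21 went against the majority. It had 742, 712 and 761 with vehicle and 770, 791 and 811 with rapamycin, a change of 0.10 ± 0.05 (adjusted p = 0.22). All 3 rapamycin arrays were above all vehicle arrays. Its direction turned with the scale. After quantile normalization over 12 arrays it rose (0.19, adjusted p = 0.023), and after scaling to the bacterial spike controls its change was -0.09.

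3 genes carry an Mrps symbol although their proteins are now placed elsewhere, and all 3 fell with rapamycin in the fit as deposited. Mrps18a and Mrps30 are proteins of the large subunit, and Mrps36 belongs to the oxoglutarate dehydrogenase complex. Mrps18a had 1247, 1258 and 1328 with vehicle and 820, 936 and 845 with rapamycin (-0.56 ± 0.06, adjusted p = 1.9e-05). Mrps30 changed by -0.28 (adjusted p = 0.0015) and Mrps36 by -0.19 (adjusted p = 0.017). The call of Mrps36 was lost after quantile normalization over 12 arrays (-0.10, adjusted p = 0.19), without vehicle array 1 (adjusted p = 0.058) and without vehicle array 3 (adjusted p = 0.062). Without them 20 of 26 genes fell, and the median remained -0.34.

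**Figure D2:**
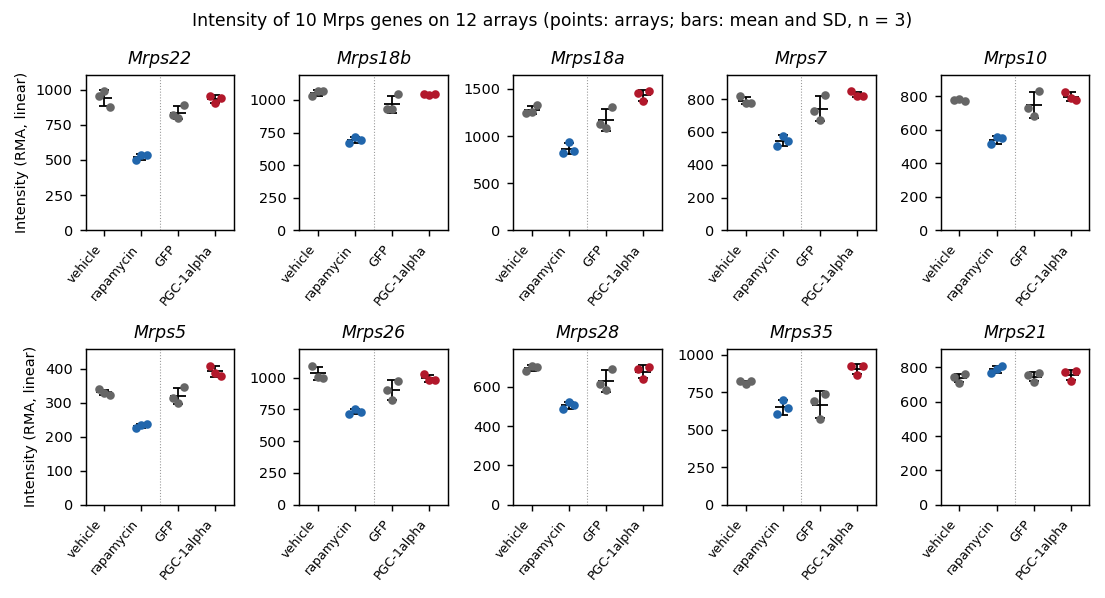
Intensity (RMA values on a linear scale, each axis from 0) of 10 Mrps genes on all 12 arrays, with a dotted line between the separately normalized experiments. Points are arrays and bars are the mean and SD of 3. The rapamycin arrays lie below the vehicle arrays in 9 panels, and above them in that of Mrps21.

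With PGC-1alpha few of the Mrps genes passed the test. 2 of 29 rose (6.90%) and 0 fell (limma, adjusted p under 0.05), where 1.41% of all genes rose and 0.594% fell. At an unadjusted p under 0.05, 11 were higher and 0 lower, where 1615 of all 18193 genes were higher and 602 lower. Of the 5643 genes at least as bright as the dimmest member, 1019 were higher and 219 lower. The median log2 change was 0.12, against 0.01 over all genes, and the range was -0.06 to 0.45. In 12 genes every PGC-1alpha array lay above every GFP array, where 10.1% of all genes did, and in 0 every array lay below, where 5.72% did. Among the 5643 genes at least as bright as the dimmest member, 3.47% rose, with a median of 0.04.

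Mrps35, a mitochondria-specific protein, had 691, 572 and 742 on the GFP arrays and 926, 868 and 929 on the PGC-1alpha arrays. The PGC-1alpha arrays were all above the GFP arrays. The change was 0.45 ± 0.09 (limma, adjusted p = 0.019), or 1.37-fold. Mrps5 had 313, 300 and 347 with GFP and 409, 388 and 379 with PGC-1alpha, and rose by 0.30 ± 0.07 (adjusted p = 0.046), or 1.23-fold. Its groups did not overlap either.

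The call of Mrps5 belonged to 1 of its 5 probe sets. The other four had changes of -0.09 to 0.04, among them 1 of nearly the same brightness (-0.09, adjusted p = 0.74), and the mean of all 5 changed by 0.05 (adjusted p = 0.78). With rapamycin 4 of the 5 fell.

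Of the other genes with large changes under rapamycin, Mrps22, Mrps7, Mrps10 and Mrps26 were not called here. Mrps22 had 817, 800 and 888 with GFP and 956, 904 and 943 with PGC-1alpha (0.16 ± 0.06, adjusted p = 0.29), without overlap. Mrps7 had 727, 673 and 824 against 848, 821 and 820 (0.17 ± 0.07, adjusted p = 0.39), and Mrps10 had 730, 681 and 829 against 826, 790 and 776 (0.10 ± 0.07, adjusted p = 0.72). In both, GFP array 3 was above the lowest PGC-1alpha array. Mrps26 had 903, 820 and 976 against 1029, 978 and 978 (0.15 ± 0.07, adjusted p = 0.44), with GFP array 3 just below the lowest PGC-1alpha array.

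Several genes came close to the threshold with PGC-1alpha. Mrps18a had 1129, 1083 and 1307 with GFP and 1457, 1368 and 1476 with PGC-1alpha (0.29 ± 0.07, adjusted p = 0.072). Mrps24, a relative of the bacterial protein at the entry of the messenger RNA channel, had 687, 705 and 798 against 908, 851 and 885 (0.27 ± 0.07, adjusted p = 0.066). Mrps27 had 400, 379 and 405 against 462, 484 and 446 (0.23 ± 0.06, adjusted p = 0.076). In all 3 the groups were apart. A dimmer probe set of Mrps24 changed by 0.14 (adjusted p = 0.52), with overlapping groups.

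Other genes with separate groups were Mrps2, with 691 ± 42.8 and 805 ± 30.9 (0.22), and Mrps30, with 733 ± 59.4 and 850 ± 25.9 (0.22). Mrps12 and Mrps16 each differed by 0.20, Mrps22 by 0.16, Mrps26 by 0.15 and Mrps36 by 0.09, none of them called. At the low end, Mrps18c had a change of -0.06, Mrps33 of -0.03 and Mrps9 of -0.01, with overlapping groups. Mrps33 had 908, 844 and 953 with GFP and 886, 852 and 912 with PGC-1alpha, and Mrps9 had 437, 393 and 487 against 444, 411 and 445. The direction of these 3 turned with the scale, as they were 0.11, 0.14 and 0.15 after spike control scaling. Mrps9 also differed between probe sets. A dimmer one changed by 0.26 (adjusted p = 0.06) without overlap, and the others by -0.02 and -0.05.

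The count of calls with PGC-1alpha rested on single arrays. Without GFP array 3, 9 Mrps genes rose, and 6.60% of all genes did. They were Mrps35 (0.53), Mrps18a (0.37), Mrps5 (0.35), Mrps24 (0.34), Mrps30 (0.28), Mrps2 (0.26), Mrps7, Mrps12 and Mrps27 (0.25 each). Without any one of the other 5 arrays of that experiment the count was 0, where 0.346% to 0.467% of all genes rose. In those 5 fits 8 to 10 Mrps genes were higher at an unadjusted p under 0.05.

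**Figure D3:**
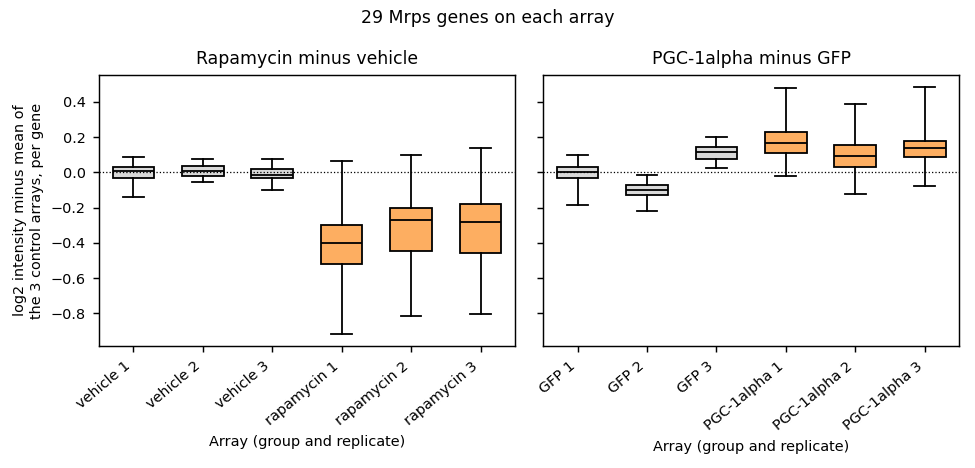
Deviation of the 29 Mrps genes from the mean of the control group of their experiment (log2), one box for each of the 12 arrays, with whiskers at the lowest and highest gene. The rapamycin arrays have medians of -0.40, -0.27 and -0.28, and the PGC-1alpha arrays 0.16, 0.09 and 0.14. Among the control arrays GFP array 2 lies at -0.10 and GFP array 3 at 0.11.

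The array medians show how far the control spread reaches. The vehicle arrays had medians of 0.01, 0.01 and -0.01 over the members, against -0.40, -0.27 and -0.28 for the rapamycin arrays. The GFP arrays had 0.00, -0.10 and 0.11, so GFP array 3 lay among the PGC-1alpha arrays (0.16, 0.09 and 0.14).

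The changes of the 2 experiments were set against each other in 1 fit of 4 group means over the 12 arrays, as the PGC-1alpha minus GFP change less the rapamycin minus vehicle change. 23 of 29 Mrps genes were higher and 0 lower in this difference, where 16.5% of all genes were higher and 7.59% lower. Of the 5643 bright genes, 35.4% were higher. The median difference was 0.50 (0.02 over all genes), and the range was -0.08 to 1.01. By estimate, 25 of 29 genes (86.2%) were lower with rapamycin and higher with PGC-1alpha, as were 32.5% of all genes and 44.9% of the 5643 bright genes. The separate changes had medians of -0.34 and 0.12.

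Mrps22 had the largest difference (1.01, limma, adjusted p = 2.1e-07), made of -0.84 with rapamycin and 0.16 with PGC-1alpha. Mrps18a followed with 0.86 (adjusted p = 4.5e-06), then Mrps5 with 0.80 (1.6e-06) and Mrps35 with 0.79 (3.5e-05). Another Mrps5 probe set of nearly the same brightness had 0.23 (adjusted p = 0.065), and the mean of all 5 had 0.34 (adjusted p = 0.00048). In Mrps24 the difference was 0.41 (adjusted p = 0.0041), although neither change was called by itself. Its dimmer probe set had a difference of 0.20 (adjusted p = 0.21), and the mean of both had 0.31 (adjusted p = 0.025). Mrps15, Mrps17, Mrps18c, Mrps21, Mrps23 and Mrps33 were not called in the difference. Mrps21 was lower in it after quantile normalization over 12 arrays (-0.22, adjusted p = 0.044), beside -0.08 as deposited. Without GFP array 3, Mrps15 (0.27, adjusted p = 0.039) and Mrps17 (0.29, adjusted p = 0.011) were higher. The difference of Mrps9 (0.36) was not called without vehicle array 1 (adjusted p = 0.057) or GFP array 2 (adjusted p = 0.06). Its dimmer probe sets had differences of 0.72, 0.20 and 0.06. Across the 29 genes, the changes with rapamycin and with PGC-1alpha had a Pearson r of -0.35 and a Spearman rho of -0.43. This is a description over genes that share the same arrays.

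**Figure D4:**
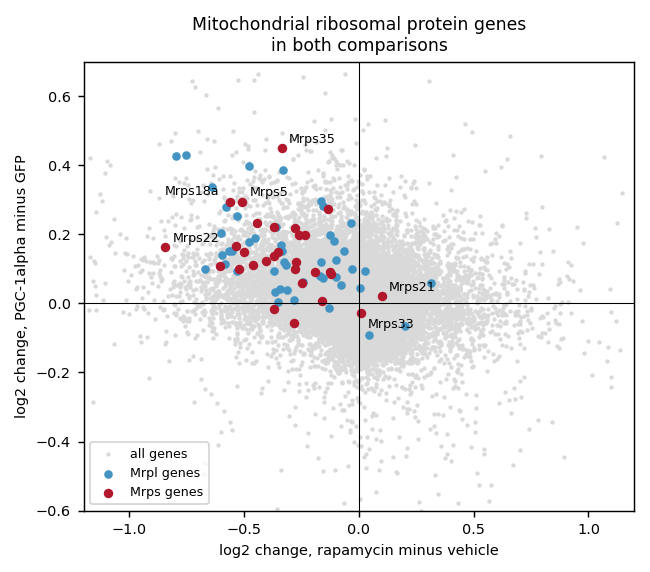
Log2 change with rapamycin (horizontal) against log2 change with PGC-1alpha (vertical), 1 point a gene; 18155 of 18193 genes lie inside the axes and 38 outside. The Mrps genes (red) and Mrpl genes (blue) lie mostly in the upper left, lower with rapamycin and higher with PGC-1alpha, which holds for 25 of the 29 Mrps genes. Mrps21 and Mrps33 lie right of 0.

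The 3 relatives of bacterial S18 are set side by side here. Mrps18a and Mrps18b, named above, changed by -0.56 and -0.61 with rapamycin, and Mrps18c by -0.28 (1130, 1152 and 1062 to 893, 923 and 930, adjusted p = 0.0016). All 3 fell without overlap. With PGC-1alpha the changes were 0.29, 0.11 and -0.06, none called. Mrps18b had 928, 935 and 1043 with GFP and 1045, 1038 and 1045 with PGC-1alpha, and Mrps18c had 1134, 946 and 1107 against 1079, 972 and 1004, both overlapping. The differences between these paralogs were not tested against each other.

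Probe sets gave a further view of the same genes. Of the 52 member probe sets, 32 fell with rapamycin and 0 rose, where 14% of the 45037 probe sets fell and 11.5% rose. With PGC-1alpha 2 rose and 0 fell, where 0.997% of the probe sets rose and 0.955% fell. 14 genes had several probe sets. Among those, Mrps10, Mrps11 and Mrps31 each had a second, dimmer probe set with a change of -0.01, -0.02 and 0.08 with rapamycin, beside -0.52, -0.41 and -0.28 on the brighter one.

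The YY1 windows printed above can be read beside these changes. The 5 genes with the letters had a median of -0.41 with rapamycin (4 fell) and 0.23 with PGC-1alpha (0 called). Among the 5 are Mrps18a and Mrps30, whose proteins belong to the large subunit. The 21 genes without them had medians of -0.28 (16 fell) and 0.10 (1 rose). Mrps22, which changed most with rapamycin, and Mrps5 are among the genes without. For the ETS letters the medians with rapamycin were -0.28 in both the 11 genes with and the 15 genes without a match. With PGC-1alpha they were 0.15 with and 0.12 without. For the NRF1 letters the 3 genes with a match had medians of -0.37 with rapamycin and 0.02 with PGC-1alpha. The 23 genes without had -0.28 and 0.12. A match of letters is a description of the sequence and not evidence of binding.

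Yy1 itself was not called in either comparison (log2 -0.11 with rapamycin, adjusted p = 0.16, and 0.07 with PGC-1alpha, adjusted p = 0.85). Ppargc1a had mean intensities of 40.7 with vehicle and 37.2 with rapamycin (-0.13, adjusted p = 0.19). Tsc2 was read at 262 and 198 (-0.40, adjusted p = 0.00079), which checks nothing about the deletion since no array holds cells with TSC2.

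Other genes of mitochondrial translation were followed from lists. The small subunit proteins without an Mrps symbol, of which 3 of 4 were measured, all fell with rapamycin: Ptcd3 by 0.65, Chchd1 by 0.28 and Dap3 by 0.22 on the log2 scale. Beside them, 18% of all genes fell, and 36.9% of the 5643 genes at least as bright as the dimmest Mrps gene. With PGC-1alpha they had changes of 0.20, 0.04 and 0.16, none called.

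Of 8 genes for assembly of the small subunit and modification of its RNA, 2 fell (25%) and 1 rose (12.5%) with rapamycin, with a median of -0.07. These shares stand beside 18% and 11.3% of all genes. Noa1, a GTPase, changed by -0.63 and Eral1, a chaperone of the ribosomal RNA, by -0.27, while Mettl15, which methylates it, rose by 0.26. With PGC-1alpha 0 of the 8 were called (1 higher and 0 lower at an unadjusted p under 0.05), and Noa1 had the largest change (0.39, adjusted p = 0.083).

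Of the mitochondrial translation factors 9 of 11 were measured, and 5 fell with rapamycin (55.6%, beside 18% of all genes). These were the elongation factors Gfm1 (-0.66), Tsfm (-0.41) and Tufm (-0.39), the recycling factor Gfm2 (-0.33) and the initiation factor Mtif2 (-0.18). With PGC-1alpha 2 rose (22.2%, beside 1.41% of all genes), Gfm1 (0.39, adjusted p = 0.015) and Tufm (0.37, adjusted p = 0.0091).

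In the large subunit, 31 of 47 Mrpl genes fell (66%, beside 18% of all genes) and 2 rose (4.26%, beside 11.3%) with rapamycin. The median was -0.33, and the largest falls were those of Mrpl45 (-0.80) and Mrpl12 (-0.75). The risers were Mrpl23 (0.31) and Mrpl33 (0.20). With PGC-1alpha 5 rose (10.6%, beside 1.41% of all genes) and 0 fell (beside 0.594%), with a median of 0.12. The genes that rose were led by Mrpl12 (0.43) and Mrpl4 (0.40). The 21 cytosolic small subunit genes measured had a median of 0.07 with rapamycin, where 3 rose (14.3%, beside 11.3% of all genes) and 1 fell (4.76%, beside 18%). Their median was -0.01 with PGC-1alpha, where 0 were called (3 higher and 0 lower at an unadjusted p under 0.05).

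**Figure D5:**
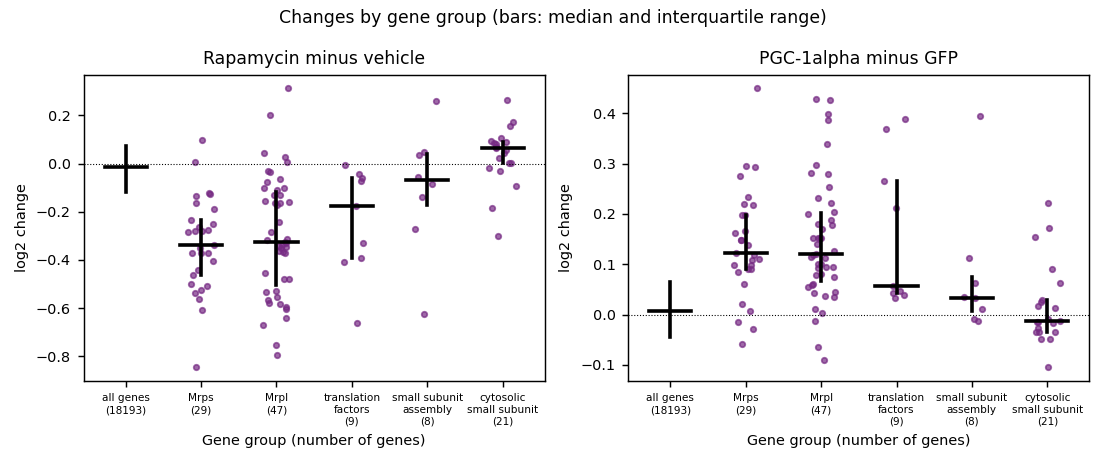
Log2 change by gene group, with rapamycin (left) and with PGC-1alpha (right). Points are genes, bars give the median and interquartile range, and for all genes only these bars are drawn. The Mrps genes have medians of -0.34 and 0.12, close to the Mrpl genes (-0.33 and 0.12), while the cytosolic small subunit genes have 0.07 and -0.01.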

How the data were processed

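RNA of 12 samples was hybridized to Affymetrix MOE430 version 2 arrays. Per the labels' protocols, the authors normalized each experiment as a batch of its own, 2 in all, with RMA at its defaults (BioConductor version 1.2). The deposited intensity values ran from 9.299 to 21072.43, so they were read as linear and log2 was taken with no pseudocount. 64 control probe sets were left out, which left 45037.

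Each comparison was fitted with limma 3.58.1 (R 4.3.3) on its own 6 arrays, two-sided, with Benjamini-Hochberg adjustment over the 45037 probe sets and a threshold of 0.05. The difference of the comparisons came from 1 fit of 12 arrays. Of these probe sets 34945 had 1 symbol, 932 several and 9160 none in the platform annotation. The number of arrays limits the precision. Where nothing says that triplicates were separate cultures, p-values measure the spread between these samples.

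All 29 members could be named. Values on each array are given for the 8 largest changes that passed in each comparison, for members against the majority and for the Mrps18 paralogs, with some others added after their values were seen. At most 4 genes of another list were to be named, and Mtif2 was added. The members, lists and motifs were chosen with earlier results of these data known. The fits were tested on simulated data, with 67 changed probe sets of log2 size 0.3 among 45037. Of these, 28.4% were recovered in the simulated rapamycin comparison and 8.96% in the simulated PGC-1alpha comparison. For a log2 size of 0.6 the shares were 92.5% and 79.1%. In the measured rapamycin comparison far more probe sets changed (5168 rose and 6301 fell), so the adjustment was less strict there. The rapamycin shares therefore do not give the recovery in the measured data, where Mrps36 was called at a log2 change of -0.19. With PGC-1alpha 449 probe sets rose and 430 fell, so its shares are only a rough guide. A gene that was not called was still not shown to be unchanged. Alternatives were other scalings, filters, probe set rules, a replicate block and leaving out arrays. Replicate numbers were not used as pairs.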

Additional observations from a re-analysis of the deposited data

How the results depend on the processing

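With rapamycin the number of Mrps genes that fell was 21 to 27 over the alternatives, and 20 genes fell in all 15 settings run. Their median of -0.34 moved to -0.25 after quantile normalization over 12 arrays, to -0.53 after scaling to the spike controls and to -0.27 with the mean of all probe sets of a gene. Spike scaling also moved the median over all genes from -0.01 to -0.20 with rapamycin. With PGC-1alpha it moved that median from 0.01 to 0.18, and the median of the Mrps genes became 0.29. The count of 27 came from spike scaling, where 46.1% of all genes fell with rapamycin, beside 18% as deposited. With PGC-1alpha the 2 calls became 4 with quantile normalization, 4 without dim probe sets (fewer tests), 5 in the fit over 12 arrays, and 1 with spike scaling or with the mean of all probe sets. In the same order of settings, 1.75%, 2.73%, 2.63%, 0.929% and 0.978% of all genes rose, beside 1.41% as deposited. Leaving out 1 array gave 0 to 9 calls, where 0.346% to 6.60% of all genes rose. No Mrps gene rose in all 15 settings; Mrps35 did in 10. In the difference 21 to 27 genes were higher (with quantile normalization 21, and 1 lower), and 20 were in all 19 settings. The 27 came from spike scaling, where 43.3% of all genes were higher, beside 16.5% as deposited. The cause of these shifts was not tested.

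No change that turned direction was called in the values as deposited, though Mrps18c and Mrps9 fell with rapamycin. Mrps21 was called under quantile normalization, higher with rapamycin (0.19) and lower in the difference (-0.22). Spike scaling gave -0.18 for Mrps33 and -0.09 for Mrps21 with rapamycin, 0.11 for Mrps18c, 0.14 for Mrps33 and 0.15 for Mrps9 with PGC-1alpha, and differences of 0.32 for Mrps33 and 0.28 for Mrps21. Quantile normalization gave -0.03 for both Mrps21 and Mrps15 with PGC-1alpha, and the mean of all probe sets 0.04 for Mrps9. Leaving out 1 array gave -0.02 to 0.04 for Mrps33 with rapamycin. With PGC-1alpha it gave -0.08 to 0.01 for Mrps33, -0.01 to 0.05 for Mrps21, -0.09 to 0.11 for Mrps15 and -0.09 to 0.06 for Mrps9, and in the difference -0.08 to 0.00 for Mrps33.

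With the replicate number as a block, 23 Mrps genes fell with rapamycin, 2 rose with PGC-1alpha (Mrps35 and Mrps18a, while Mrps5 had an adjusted p of 0.059) and 23 were higher in the difference. The numbers did not pair the arrays: deviations of arrays with the same number correlated at -0.052, 0.072 and 0.005 in the first experiment and at -0.133, 0.231 and -0.011 in the second, and not every array correlated best with its own number.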
